A study of Mus musculus with 3 samples.

Results

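Dorsal inhibitory neurons (DI) are the inhibitory interneurons of the dorsal horn of the spinal cord. Here they are the 1589 nuclei that the deposited annotation calls neurons of the DI sub-type, out of 14662 nuclei in all and 8800 neurons other than motor neurons, which makes DI 10.8% of nuclei and 18.1% of neurons. Single-nucleus RNA sequencing was performed on frozen lumbar spinal cord of 12 mice aged 90 days. Transgenic SOD1G93A mice of the line B6.Cg-Tg(SOD1*G93A)1Gur/J, which carry many copies of a mutant human SOD1 gene, were compared with C57BL/6J wild-type littermates (WT), with 3 females and 3 males of each genotype. No mouse received an experimental treatment. Nuclei of 1 mouse of each sex and genotype were hashtagged and pooled, and 3 such pools (A, B and C) were each captured once.

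The dorsal horn receives sensory input from skin, muscle and viscera, and its inhibitory neurons release GABA, glycine or both onto neighbouring neurons and onto the sensory endings themselves. Most of them arise from progenitors that switch on the transcription factors Pax2 and Lhx1/Lhx5, and in the adult they are commonly divided by peptides and other markers such as galanin and dynorphin, neuropeptide Y, neuronal nitric oxide synthase, parvalbumin and calretinin. They are studied for the gating of touch, itch and pain. The comparison of SOD1G93A with WT asks which of their genes had changed at 90 days in a mouse model of amyotrophic lateral sclerosis (ALS), a disease of motor neurons.

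The authors assigned sub-types by mapping neurons to a published reference of spinal cord nuclei, and the other sub-types are dorsal excitatory (DE), mid excitatory and inhibitory (ME, MI), ventral excitatory and inhibitory (VE, VI), and the reference groups VC and VM. Of the DI nuclei, 1497 had mapped to a DI class of that reference, 32 to an MI class, 12 to a DE class and 45 to neurons with no class, with a median mapping score of 0.889. Each of the 12 mice gave 55 to 258 DI nuclei and 834199 to 3523839 unique molecular identifiers (UMIs, counted RNA molecules). The median DI nucleus held 11763 UMIs and 3515 genes, against 12864.5 UMIs over all neurons. Of cell barcodes, 15 occurred in more than 1 pool, and 0 did so among DI nuclei.

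Checked against its markers, DI had high levels of inhibitory genes and little of the excitatory one. Gad1, which encodes the GABA-synthesising enzyme GAD67, stood at 114 ± 20.5 CPM (UMIs of the gene as counts per 1000000 UMIs, summed over the DI nuclei of a mouse; SD, n = 12), with a range of 65.4 to 145. MI nuclei came next with 66.0 CPM, and DE nuclei had 7.87 CPM. Gad2, which encodes GAD65, was at 107 ± 13.4 CPM in DI and higher, at 155 CPM, in MI. The glycine transporter gene Slc6a5, a marker of glycinergic neurons, was at 84.5 ± 12.6 CPM in DI, near the 90.0 CPM of MI and the 85.6 CPM of VM and below the 151 CPM of VI. Slc17a6, the vesicular glutamate transporter of excitatory spinal neurons, was at 11.8 CPM in DI against 116 CPM in DE. Thus DI led the 8 named sub-types in Gad1, was the second in Gad2 and was the lowest in Slc17a6. Since the mapping used the counts of all genes, these levels, and all other levels compared between sub-types or clusters, describe the groups and carry no test.

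**Figure D1:**
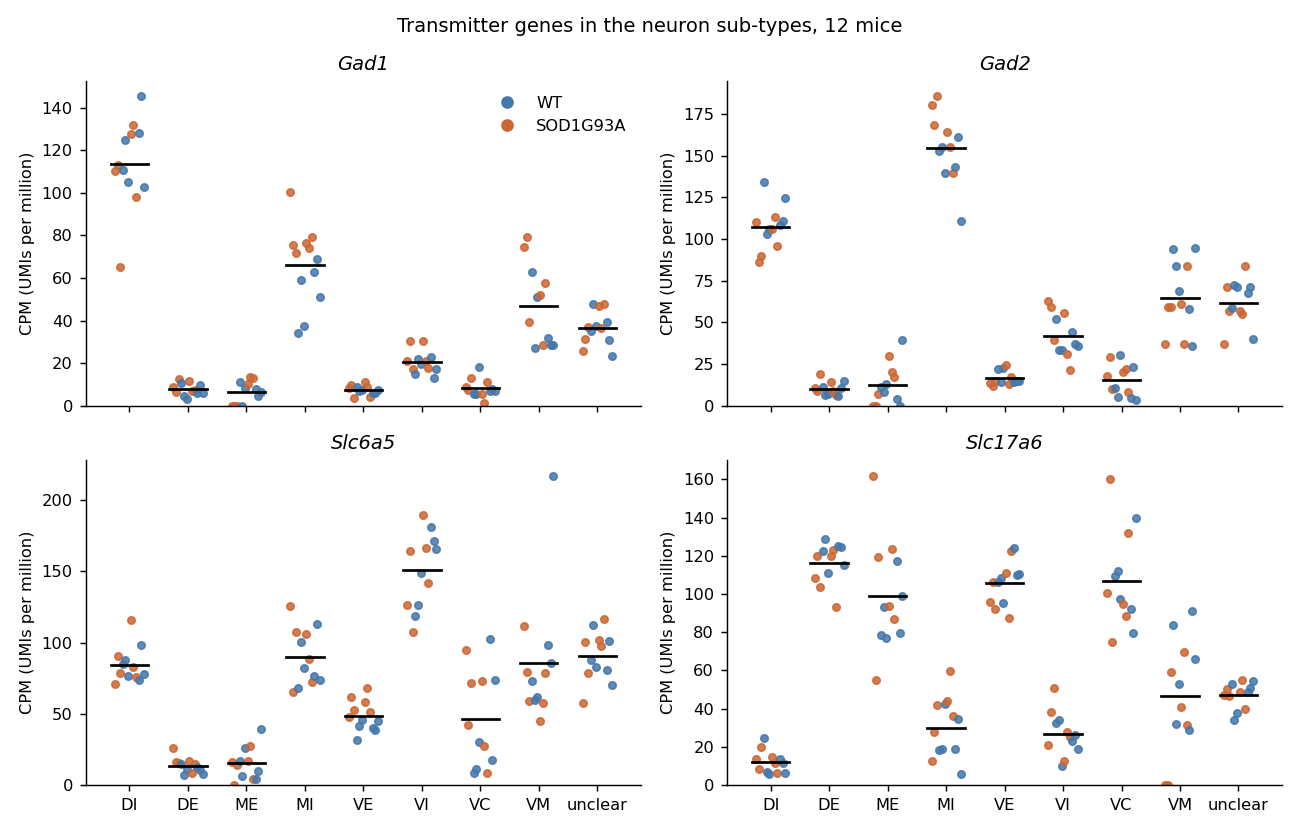
CPM of Gad1, Gad2, Slc6a5 and Slc17a6 in the nuclei of each mouse (points, n = 12 mice) for the 8 named neuron sub-types and neurons of unclear sub-type, with the mean as a bar. Gad1 was highest in DI (65.4 to 145 CPM), Gad2 in MI and Slc6a5 in VI, while Slc17a6 was at 11.8 CPM in DI against 116 CPM in DE.

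A Gad1 UMI was found in 61.2% of DI nuclei. After each nucleus was thinned to 5000 UMIs, which left 1495 DI nuclei, the share was 38.5%, against 3.17% in DE and 3.45% in endothelial nuclei, which should lack the gene. The median nucleus of DE held 10188 UMIs and that of endothelial nuclei 6963. Schwann and meningeal nuclei, with a median of 1584 UMIs, had a Gad1 UMI in 46.4% of the 84 that were deep enough. At this thinned depth 19.9% of DI nuclei held UMIs of a Gad gene together with Slc6a5, 41.9% held a Gad gene alone, 12.3% held Slc6a5 alone and 25.8% held neither. At full depth the corresponding shares were 42.7%, 39.8%, 8.75% and 8.81%. MI nuclei had nearly the same shares as DI at the thinned depth, 19.3%, 39.6%, 10.2% and 30.9% in the same order. In VI they were 12.4%, 10.6%, 36.9% and 40.1%. A Slc6a5 UMI was found at the thinned depth in 32.2% of DI nuclei, 4.83% of DE nuclei, 4.89% of endothelial nuclei and 61.9% of the 84 Schwann and meningeal nuclei, and UMIs of a Gad gene together with Slc6a5 in 0.685% of DE nuclei. These shares count nuclei with a UMI and do not sort DI nuclei into kinds.

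Of 11005 genes with a mean of at least 5 CPM in DI or in the other named sub-types together, 620 (5.63%) were higher in DI in all 12 mice and 1118 (10.2%) were lower in all 12. The others were 1 sum per mouse, with 3089 DE and 1317 VE nuclei beside 542 of MI and 496 of VI. Ratios to them therefore set DI mostly against excitatory neurons. Among the 14 genes listed for inhibitory transmission, 11 reached that level, of which 6 were higher in all mice and 1 was lower, with a median log2 ratio of 0.59 against -0.05 over all genes. Beside Gad1 (log2 ratio 2.85) and Gad2 (1.85), the higher ones included the vesicular transporter Slc32a1 (1.15), Slc6a5 (0.73) and the GABA-degrading enzyme Abat (0.59). Taken singly, MI, VM and VI each had a higher mean of Slc6a5 than DI. The VM mean included 217 CPM in the male WT mouse of pool C, with 45.1 to 112 CPM in the other mice. The postsynaptic scaffold gephyrin (Gphn) was the lower one, at 1171 ± 61.9 CPM in DI and 1430 ± 60.0 CPM in the others.

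Several transcription factors were among the genes with the highest ratios in DI, though transcription factors as a class were not counted. Of 15 transcription factors listed for dorsal inhibitory neurons, 10 reached 5 CPM, of which 7 were higher in all 12 mice and 3 were lower (median log2 ratio 2.22). Over all 11005 genes, 5.63% were higher and 10.2% lower in all 12 mice. Sall3 led all genes of at least 20 CPM, with 92.1 ± 14.3 CPM in DI and 7.03 ± 1.89 CPM in the others (log2 ratio 3.55). The paired-box factors Pax8 (3.19) and Pax2 (2.34), the homeobox factor Gbx1 (3.18), the LIM factors Lhx5 (2.10) and Lhx1 (17.9 CPM in DI against 3.52), and the nuclear receptor Rorb (2.84) followed. Pax2 stood at 217 ± 30.1 CPM in DI against 41.9 ± 5.05 CPM, and Rorb at 546 ± 83.1 CPM against 75.2 ± 10.9 CPM. The lower ones included Satb1 (-2.17) and Rora (-0.31).

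Of 6191 genes with a mean of at least 20 CPM in DI or in the other sub-types, 136 were at least 2-fold higher in DI by the mean ratio and higher in all 12 mice. By the same rule 181 were lower. The 15 with the highest ratios also held the adhesion genes Cdh3 (log2 ratio 3.27) and Dscaml1 (2.36), the glypican Gpc4 (3.26), tyrosinase (Tyr, 2.83), the cytokine receptor Il20ra (2.58), the nociceptin precursor Pnoc (2.57), Hpse2 (2.45), Rab38 (2.43) and Ppfibp2 (2.42). For most of them MI came second, as with Sall3 (42.9 CPM over all MI nuclei), Pax8 (59.9 CPM) and Pax2 (138 CPM). Set against whichever sub-type came next, 27 genes were at least 2-fold higher in DI. Tyr (log2 2.41 above the next), Ppfibp2 (1.82), Rorb (1.70), Gpc4 (1.57), Pcp4l1 (1.56), the kinase Prkcq (1.53), Kank1 (1.40), Tnfrsf19 (1.37), Pdzd2 (1.35) and Il20ra (1.33) had the widest margins. Tyr varied widely between mice, at 21.2 ± 19.4 CPM.

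Of the 15 genes with the lowest ratios, 8 were highest in DE and 3 in ME. They held the dorsal excitatory factor Lmx1b (log2 ratio -3.58), Slc17a6 (-3.00), the peptide Nmu (-3.15), the secreted protein reelin (Reln, -3.03), and the calcium channel subunit Cacna2d1, a binding site of gabapentin, which had 99.6 ± 29.5 CPM in DI and 978 ± 116 CPM in the others (-3.34). Bnc2 (-4.42), Tmem163 (-3.69), Meis2 (-3.37), Fam19a1 (-3.23), Myo5b (-2.89), Gfra1 (-2.81) and the transcripts D130009I18Rik (-3.74), D130079A08Rik (-3.47) and Gm6213 (-3.01) were also among them. Of the 11 listed excitatory genes that reached 5 CPM, 7 were lower in all 12 mice and 1, Ebf3 (0.43), was higher, beside 10.2% and 5.63% of all 11005 genes. Over 5836 genes, the profile of DI lay closest to MI by Pearson r across genes (0.968, against 0.948 for DE) and by the number of genes differing by more than 2-fold (187, against 276 for DE). By the median absolute log2 difference it lay closest to DE (0.12, against 0.14 for MI). VI was the furthest by all 3 measures (r = 0.892, 622 genes and 0.28). Genes are not independent replicates, and these r values share the depth and free RNA of the same libraries.

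Of 18 listed peptide genes at 5 CPM or more, 7 were higher in DI in all mice and 5 were lower, beside 5.63% and 10.2% of all 11005 genes. Pnoc, neuropeptide Y (Npy, 16.9 ± 7.70 CPM against 2.19 ± 1.01, log2 ratio 2.44), prodynorphin (Pdyn, 1.77) and the natriuretic peptide Nppc (1.39) were higher, as were the granins Vgf (1.15), Scg2 (0.88) and Chgb (0.66). Neurotensin (Nts, -2.30), Nmu, somatostatin (Sst, -1.54), Adcyap1 (-1.89) and Chga (-0.45) were lower. Galanin (Gal, 1.64) was higher in 11 of 12 mice and proenkephalin (Penk, -0.27) in 5 of 12. Among the 12 listed dorsal horn class markers that reached this level, 6 were higher in all mice, among them Cdh3, the channel-interacting protein Kcnip2 (1.53) and the receptor tyrosine kinase Ret (0.66), and 2 were lower, Reln and calbindin (Calb1, -1.96), to be read against those shares.

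Of 14 peptide and cannabinoid receptors, the somatostatin receptor Sstr2 (17.4 ± 6.91 CPM in DI) and the mu opioid receptor Oprm1 (156 ± 31.1 CPM against 97.7 ± 12.0 in the others, log2 ratio 0.65) were higher in all mice, whereas the substance P receptor Tacr1 (8.40 ± 3.27 CPM against 51.6 ± 5.57, -2.55), the delta opioid receptor Oprd1 (-1.36), Npy1r (-1.40), the cannabinoid receptor Cnr1 (-1.14), Nmur2 (-1.12) and Cckbr (-0.61) were lower. Of 19 ionotropic glutamate receptor genes, 5 were higher, the kainate subunits Grik3 (1.52), Grik2 (1.03) and Grik1 (0.82), the AMPA subunit Gria1 (1.07) and Grin2c (1.14), and 3 were lower, Grid1 (-1.93), Grin3a (-1.25) and the scaffold Grip1 (-0.65). Metabotropic Grm3 (1.79), Grm5 (0.89) and Grm7 (0.72) were higher, and Grm8 (-0.27) was among the 2 that were lower, out of 6. Of 17 GABA and glycine receptor subunits, 1 was higher, Gabrg1 (0.50), and 5 were lower, among them Gabrb2 (-0.97), Gabra5 (-0.78) and Gabrb1 (-0.55). Over all 11005 genes, 5.63% were higher and 10.2% lower in all 12 mice, so the 1 higher subunit of 17 is no result about this list.

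Among 24 sodium and calcium channel genes, 7 were higher and 7 lower in all mice, beside 5.63% and 10.2% of all genes. Cacna2d3 was higher, with 1701 ± 253 CPM against 653 ± 67.4 (log2 ratio 1.37), opposite to its paralog Cacna2d1, and the T-type channel gene Cacna1i (1.20) and Cacna1e (0.79) were also higher, whereas Scn9a (-0.90), which encodes a sodium channel best known from sensory neurons, was lower. Of 31 potassium and HCN channel genes, 11 were higher and 6 lower, to be read against the same shares of all genes. Kcnip2, Kcnc2 (1.05), Kcnb2 (0.98), Kcnq3 (0.98) and the A-type channel gene Kcnd2 (0.63) were among the higher, and Kcnn3 (-0.92) and Kcnh7 (-0.84) among the lower.

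Within DI, the deposited clustering of all nuclei spread its members over 19 clusters. Of these, 12 held at least 50 DI nuclei, with 63 to 318 each and 1545 in all. A median of 99.3% of the nuclei of such a cluster were DI. Cluster 22 was the exception, as 45.0% of its 229 nuclei were DI and 98 were neurons of unclear sub-type. Pax2 was at 94.1 CPM or more in each of the 12 clusters and Slc17a6 at 18.5 CPM or less, whereas Rorb ran from 6.05 to 1516 CPM and Slc6a5 from 9.52 to 191 CPM.

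Cluster 16, the largest with 318 nuclei, was led by the phosphodiesterase Pde11a (855 CPM against 17.8 in the other DI nuclei), the guanylate cyclase Gucy2d, Chn2, the neuronal nitric oxide synthase Nos1 (136 CPM against 2.78) and Hmga2. It held 90.2% of the Gal UMIs of DI, 89.3% of the Pdyn UMIs and 91.3% of the Nos1 UMIs, so that the galanin and dynorphin genes and nitric oxide synthase marked 1 cluster. Of its nuclei, 152 had mapped to the reference class DI_2 and 152 to DI_3, and 43.7% held a Nos1 UMI. Whether these 3 genes shared nuclei within the cluster was not tested. The neurokinin B receptor Tacr3 (139 CPM) and Pnoc (69.5 CPM) were also highest in it. Cluster 48 (67 nuclei) had the highest Npy (151 CPM), Penk (96.0 CPM) and kappa opioid receptor Oprk1 (98.9 CPM), and was led by Gm36431, Prkch, Myo5b, the receptor subunit Calcrl and Tex15. Its nuclei mapped to the reference class DI_4, as did most DI nuclei of cluster 22, which was led by Cdh23, Ntn1, C130060K24Rik, Zfhx3 and Kcns3 and was second in Npy (51.8 CPM).

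Rorb was high in clusters 20 (250 nuclei, 1320 CPM) and 30 (157 nuclei, 1516 CPM). Cluster 30 was led by Tyr and the substance P precursor Tac1 (165 CPM, 78.5% of the Tac1 UMIs of DI), with Shisa9, Ptprz1 and Entpd3. Cluster 20 was led by Hpse2, Pde3a, Rai14, Sorcs3 and Adam12. Cluster 39 (103 nuclei) had the highest Rora, at 7237 CPM against 1126 in the other DI nuclei, and was led by it together with Scn7a, Foxp2, Gm47710 and Cdh12. Cdh3 was highest in clusters 42 (238 CPM) and 45 (200 CPM). Genes that led cluster 42 included Sptlc3, Il1rapl2, Col5a2 and Sned1, and cluster 45 was led by Clrn1, Ccbe1, Trabd2b, Mitf and Adarb2. Cluster 45 also had the highest parvalbumin (Pvalb, 27.7 CPM) and Gad2 (200 CPM).

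Cluster 51 (64 nuclei) had the highest Gad1 (497 CPM), Slc6a5 (191 CPM) and Kcnip2 (297 CPM), and was led by Rasgrp4, Ikzf3, Nfatc1, Slc9a3 and Ebf2 (1220 CPM against 66.4). Cluster 50 (63 nuclei) had the highest calretinin (Calb2, 57.9 CPM), Reln (118 CPM) and Sall3 (243 CPM), and was led by Car4, the histamine receptor Hrh1, Gm42557, Rxfp2 and Unc5cl. Cluster 31 (154 nuclei) was led by the receptor Met, AC129186.1, Eya2, Col25a1 and Nxph2 and was second in Penk (81.6 CPM). Cluster 43 (90 nuclei) was led by Adamts5, Adamtsl3, Pde1c, Igfbp7 and Pld5. Npy, Calb2, Pvalb and Tac1 thus each peaked in a different cluster, and Gal, Pdyn and Nos1 in the same cluster.

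**Figure D2:**
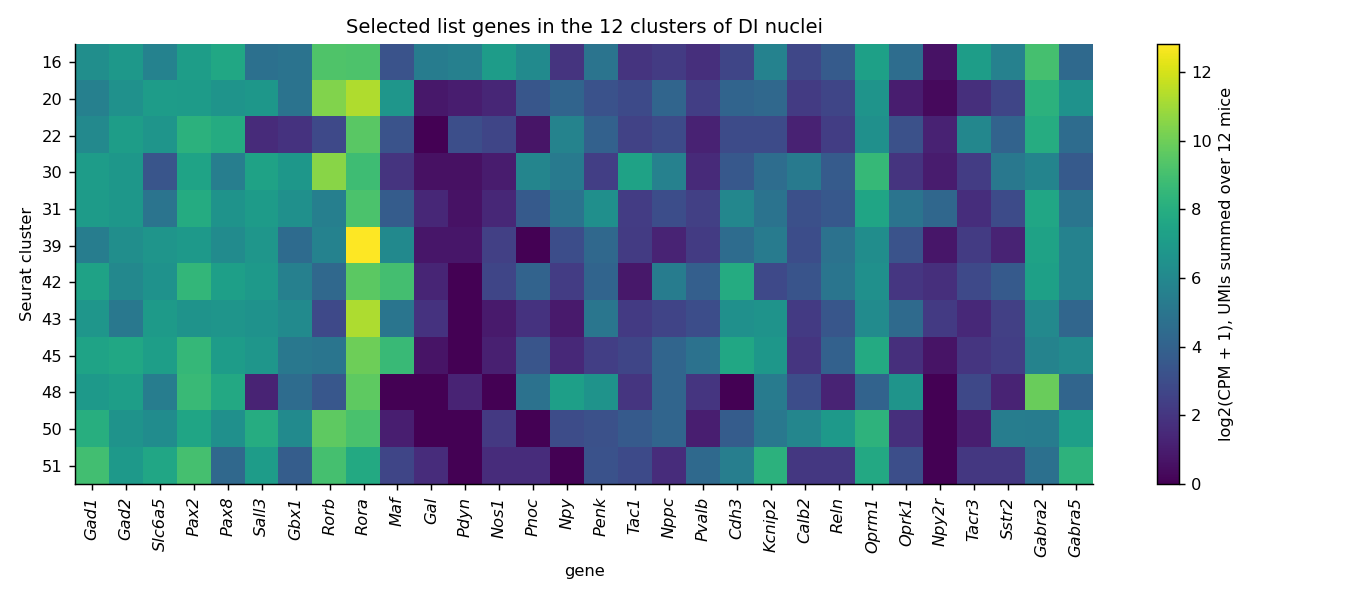
Heat map of log2(CPM + 1) of 30 genes (columns) over the 12 clusters with at least 50 DI nuclei (rows), with counts summed over the DI nuclei of each cluster and no error shown. Pax2 is high in every row, Rorb peaks in clusters 20 and 30, Nos1, Gal and Pdyn in cluster 16, Tac1 in cluster 30 and Npy in cluster 48.

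The share of DI among neurons did not differ detectably between genotypes. It was 15.2%, 17.4% and 20.3% (lowest, median, highest; mean 17.8% ± 2.01, SD, n = 6) in WT mice and 16.5%, 18.2% and 25.7% (19.4% ± 3.47) in SOD1G93A mice. The ranges overlapped, and the highest share was that of the female SOD1G93A mouse of pool A, which had the fewest neurons, 268. The fitted log2 difference was 0.12 (edgeR quasi-likelihood test, FDR = 0.747 over 9 sub-types). With 1 mouse left out it ran from 0.044 (the female SOD1G93A mouse of pool A left out) to 0.20 (that of pool C left out), with an edgeR FDR of 0.191 to 0.931. It was 0.059 with the female WT of pool A, 0.065 with the male WT of pool B and 0.19 with the female WT of pool B left out. SOD1G93A was higher in 4 of 6 pairs of mice of the same sex and pool (exact permutation test over pairs, two-sided, p = 0.5625, smallest possible 0.03125). Over all nuclei in place of neurons, the difference was -0.16 (FDR = 0.460). More DI nuclei and fewer nuclei of the other sub-types cannot be told apart in such a share.

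None of the 12 clusters changed its share of DI nuclei at an FDR below 0.05 in the edgeR test. The lowest unadjusted p was 0.0851 for cluster 50 (FDR = 0.784), with 0 clusters under an unadjusted p of 0.05. When clusters with as few as 20 DI nuclei were included, cluster 6 was called (log2 2.23, FDR = 0.00811). It held 29 DI nuclei, 7 (0.696%) of those from WT mice and 22 (3.77%) of those from SOD1G93A mice, and was higher in SOD1G93A in 5 of 6 pairs and lower in 0. Cluster 6 held 593 nuclei in all, of which 249 were neurons of unclear sub-type and 82 Schwann or meningeal nuclei. Its DI nuclei had a median of 7467 UMIs and a median mapping score of 0.396, and 16 of them had mapped to no class.

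**Figure D3:**
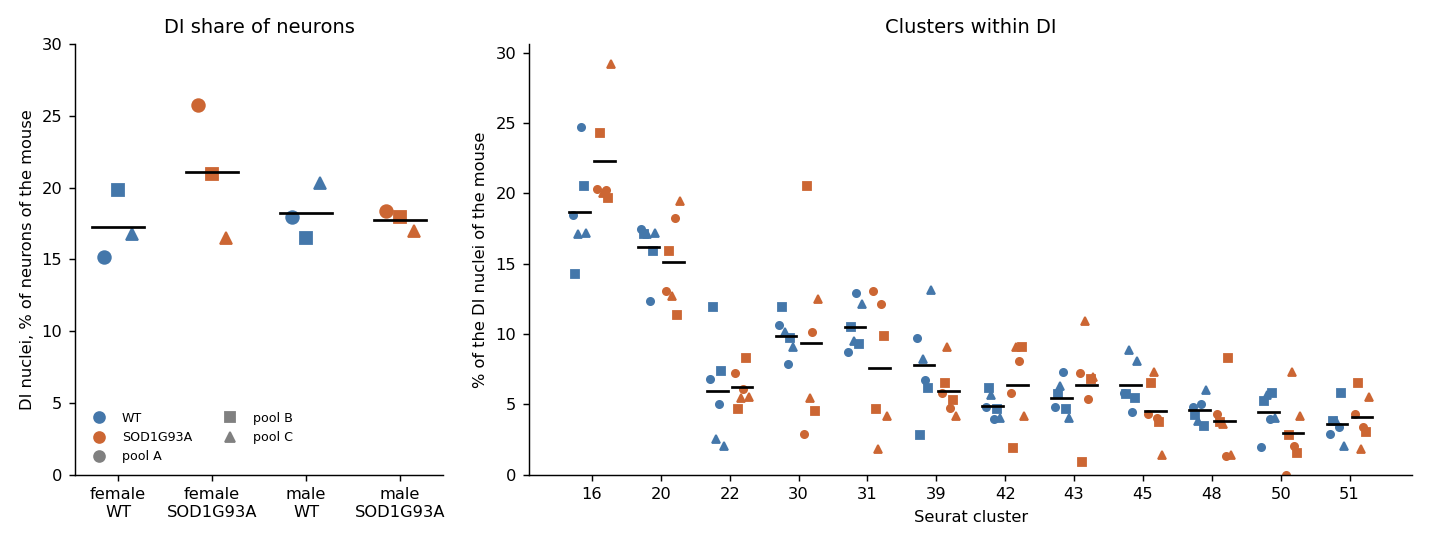
Left, percent of neurons that were DI in each mouse by sex and genotype; right, percent of DI nuclei in each cluster by genotype. Points are mice with shapes for pools, and bars are means (n = 3 mice a group on the left, 6 a genotype on the right). The WT range of 15.2% to 20.3% overlaps the SOD1G93A range of 16.5% to 25.7%.

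The median UMIs per DI nucleus averaged 11526 ± 1466 over WT mice and 11803 ± 1977 over SOD1G93A mice (SD, n = 6 each; difference 278, exact permutation test over pairs, two-sided, p = 0.75). The difference turned to -227 or -243 with the female or the male pair of pool A left out and was 411 to 653 with any other pair left out. Genes were then compared on UMIs summed over the DI nuclei of each mouse, so that fewer cells of a kind and less RNA per cell cannot be told apart. Of 10505 genes tested with limma, 2 passed an FDR of 0.1, which is 0.0190% of those tested, and both were higher in SOD1G93A. At an unadjusted p below 0.05, 432 genes (4.11%) differed, of which 243 (2.31%) were higher and 189 (1.80%) lower in SOD1G93A. The edgeR test called the same 2 genes and DESeq2 called 3. Without the pool term limma called 0, with 314 at an unadjusted p below 0.05, and it called 1 with a minimum count of 30 or after mice were thinned to equal depth. Leaving out 1 mouse gave 1 gene (pool A, female WT or female SOD1G93A), 7 genes (pool C, female WT) or 5 genes (pool B, male SOD1G93A), and 2 or 3 otherwise.

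Sod1, on chromosome 16 (mm10, 90220754 to 90226329), encodes the antioxidant enzyme superoxide dismutase 1 and is the mouse counterpart of the transgene. It stood at 35.4, 48.5 and 99.2 scaled CPM (lowest, median, highest) in WT mice and at 68.4, 97.3 and 259 in SOD1G93A mice. Scaled CPM divides by library sizes corrected by TMMwsp factors. The ranges overlapped, yet the SOD1G93A mouse exceeded the WT mouse in all 6 pairs of the same sex and pool, and mice of pool A were the highest in each group. The log2 fold change was 1.07 ± 0.12 (SE, limma FDR = 8.85e-05). Without the pool as a term the log2 fold change was 1.16 and it was not called (limma FDR = 0.998). Sod1 was higher in SOD1G93A in each of the 12 clusters, with log2 ratios over summed counts of 0.06 (cluster 48) to 2.07 and a median of 1.61. These sums weight mice by their UMIs, and the highest mouse, the SOD1G93A male of pool A, gave 686 Sod1 UMIs against 60 to 140 in each other SOD1G93A mouse. In all, 70.0% of SOD1G93A DI nuclei held a Sod1 UMI against 45.5% of WT nuclei. RNA of the human transgene and of the mouse gene cannot be told apart in this row of the table.

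Bnc2, which encodes the zinc finger protein basonuclin 2 (chromosome 4, 84275095 to 84675275), was the other gene past the threshold. Its scaled CPM were 0.850, 1.98 and 6.43 in WT mice and 1.26, 6.43 and 43.6 in SOD1G93A mice. The ranges overlapped and 5 of 6 pairs were higher in SOD1G93A, with a log2 fold change of 1.89 ± 0.32 (SE, limma FDR = 0.0177). Of its 102 UMIs in SOD1G93A DI nuclei, 66 (64.7%) lay in 4 nuclei of 3 mice, and 3 of those nuclei had mapping scores below 0.4. Each of the 4 held UMIs of Gad1 (2 to 7) and Pax2 (2 to 10), with 0 to 3 of Gad2, 0 to 2 of Slc6a5 and 0 to 3 of Slc17a6. Of other genes that were low in DI, they held 0 to 10 UMIs of Reln, 0 to 7 of Meis2, 0 to 5 of Tmem163, 0 or 1 of Lmx1b and 0 of Nmu. These 4 nuclei were deep, with 20118 to 34905 UMIs each against a DI median of 11763. Without them Bnc2 was at 0.851 to 6.31 CPM in WT and 1.20 to 9.84 CPM in SOD1G93A mice. It was then still higher in SOD1G93A in 5 of 6 pairs, which was not tested. Bnc2 was also the gene with the lowest ratio of DI to the other sub-types, at 250 CPM over all DE nuclei. Among nuclei with a mapping score of at least 0.5 it fell under the minimum count and was not tested. In the 1488 nuclei that had mapped to a DI class and lay in the 12 clusters it was called (2.25, limma FDR = 0.0625). Without the pool as a term its log2 fold change was 2.08 and it was not called (limma FDR = 0.998). It was also not called with any of 3 mice of pool A left out, which were the female WT (limma FDR = 0.103), the female SOD1G93A (0.211) and the male WT mouse (0.236).

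The next genes did not pass. Of the 10505 genes tested, 179 (1.70%) were higher and 151 (1.44%) lower in SOD1G93A in all 6 pairs, so moving one way in all pairs does not set a gene apart. Ordered by p among those that moved one way in all 6 pairs, the higher ones were AC110241.2, the cytoskeletal protein anillin (Anln), the ubiquitin ligase March3, the nuclear export receptor Xpo1, the calcium sensor Hpcal1, Gm16183, the myelin gene Mobp, Sec14l5 and St6gal1, with a log2 fold change of 0.41 to 1.73 and an FDR of 0.144 to 0.321 in limma. Anln stood at 7.26, 10.8 and 15.2 scaled CPM in WT mice and 16.3, 19.5 and 27.0 in SOD1G93A mice, so the groups did not overlap (log2 fold change 0.92, limma FDR = 0.144). In the alternative settings that kept all mice, its log2 fold change ran from 0.53 to 0.99 and it was never called. Xpo1 stood at 61.1, 74.2 and 81.9 against 83.2, 95.4 and 107 scaled CPM, without overlap (0.41, limma FDR = 0.300), and Hpcal1 at 27.9, 29.2 and 33.1 against 37.3, 43.7 and 51.5 (0.53, limma FDR = 0.300). Groups that did not overlap were seen in 17 of the 10505 genes (0.162%).

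The lower ones were the neuropeptide S receptor Npsr1, the adhesion gene Flrt2, AC159282.1, Mei4, Wtip, Ncln, BC037034, Pot1b, the transferrin receptor Tfrc and A630089N07Rik. Flrt2 stood at 112, 136 and 205 scaled CPM in WT mice and 75.7, 93.6 and 134 in SOD1G93A mice, lower in all 6 pairs with overlapping ranges (log2 fold change -0.60, limma FDR = 0.300). It passed among nuclei with a mapping score of at least 0.5 (-0.65, limma FDR = 0.0757), and with the female WT (-0.74, limma FDR = 0.000617) or the male SOD1G93A mouse of pool B left out (-0.70, limma FDR = 0.0652). Npsr1 stood at 3.65, 8.57 and 12.9 against 0, 1.70 and 5.03 scaled CPM (-1.74, limma FDR = 0.144), and 53 of its 96 WT UMIs lay in 4 nuclei. It passed with the male WT of pool A left out (limma FDR = 0.0689). With the female WT of pool C left out, AC110241.2 (limma FDR = 0.0310), Anln (0.0340), Mobp (0.0636) and March3 (0.0727) passed.

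**Figure D4:**
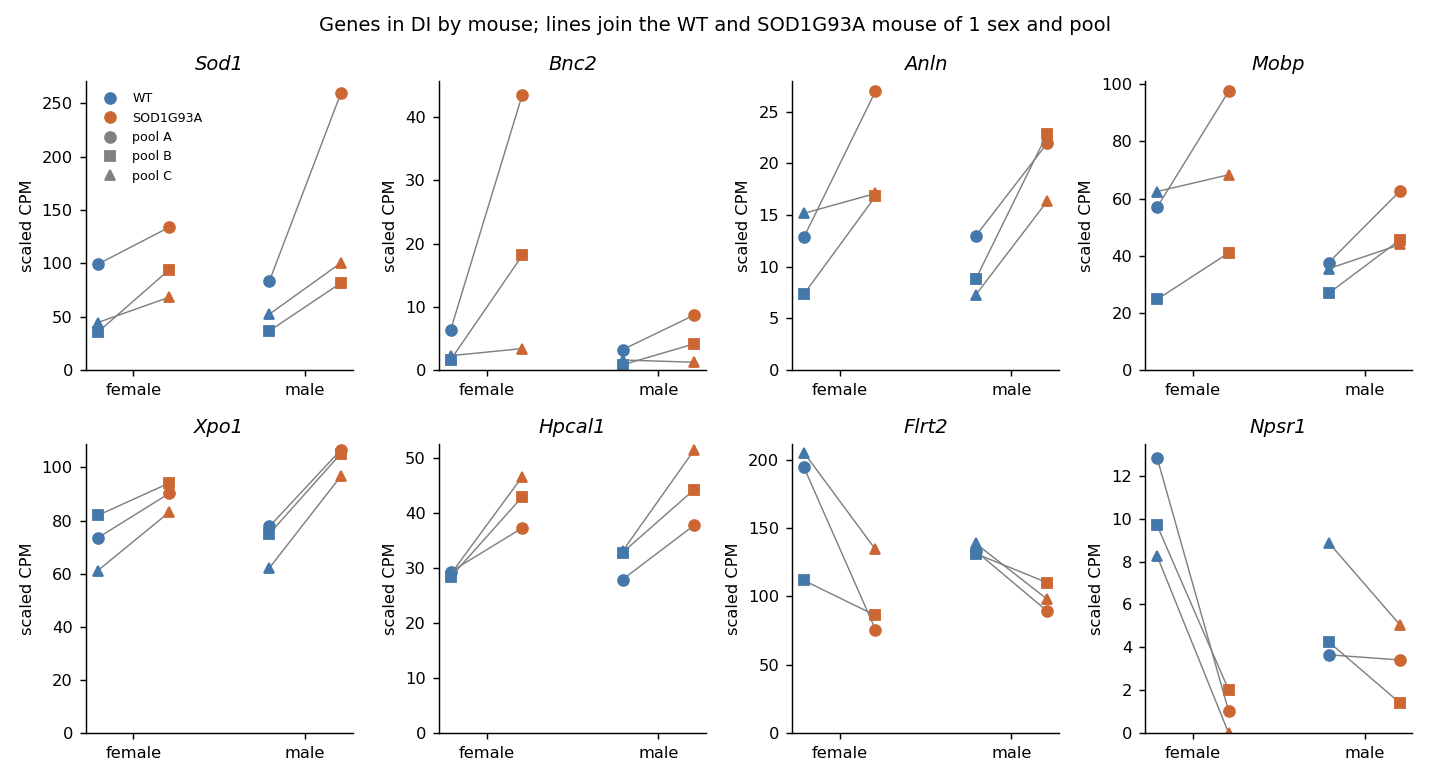
Scaled CPM of Sod1, Bnc2, Anln, Mobp, Xpo1, Hpcal1, Flrt2 and Npsr1 in DI nuclei of each mouse (points), with a line joining the WT and the SOD1G93A mouse of the same sex and pool. All 6 lines rise for Sod1 although its ranges overlap, 5 of 6 rise for Bnc2, and of the 8 genes Sod1 and Bnc2 passed the threshold.

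Of the genes in the lists, Sod1 alone passed in limma. Of the 11 inhibitory transmission genes tested, 0 passed in limma and 0 had an unadjusted p below 0.05, and their median log2 fold change was 0.01. Gad1 stood at 107, 117 and 145 scaled CPM in WT mice and 67.2, 112 and 138 in SOD1G93A mice, with a log2 fold change of -0.16 ± 0.10 (SE, limma FDR near 1). It was lower in SOD1G93A in all 6 pairs, as were 1.44% of all genes tested. Gad2 (-0.18), Slc32a1 (-0.12) and Slc6a5 (0.06) did not pass either. At an unadjusted p below 0.05, 1 of 17 GABA and glycine receptor genes was lower (Glra2, -0.31), and 1 of 13 peptide genes was higher, Pdyn (0.61, 1.26 in males and -0.05 in females). Over all 10505 genes, 2.31% were higher and 1.80% lower at that level, so a count of 1 in a list of this size is no result about the list. Of the 9 dorsal inhibitory transcription factors, 12 class markers, 12 peptide receptors, 19 ionotropic and 6 metabotropic glutamate receptor genes, 31 potassium and HCN channel genes, 24 vesicle release genes, 16 chaperones and 14 endoplasmic reticulum stress genes tested, 0 reached that level. The median log2 fold change of these lists lay between -0.08 and 0.01. Of 24 genes mutated in familial ALS, 2 were higher, Sod1 among them, and 1 was lower at an unadjusted p below 0.05, with a median of 0.05. Of 51 cytosolic ribosomal protein genes, 1 was higher and 1 lower at that level, 33 had fitted levels below WT, and the median was -0.09. The 24 nuclear transport, 24 sodium and calcium channel, 32 proteasome, 16 superoxide and peroxide defence and 5 activity-induced genes held 1 higher gene each at that level, which was Xpo1 for nuclear transport and Sod1 for superoxide and peroxide defence, and the 68 respiratory chain genes held 1 lower gene. The medians of these 6 lists ran from -0.03 to 0.06. Of 7 excitatory neuron and 7 axon injury genes, 0 reached that level (medians 0.13 and 0.06).

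Markers of oligodendrocytes were also compared between genotypes in DI nuclei. All 5 markers, among them Mbp, Mobp, Mag and Mog, had higher fitted levels in SOD1G93A, 3 of them at an unadjusted p below 0.05 and 0 past the FDR in limma, with a median log2 fold change of 0.36. Over all 10505 genes tested, 2.31% were higher in SOD1G93A at that unadjusted level. The summed level of the markers was 289 to 501 CPM in WT mice (373 ± 78.2, SD, n = 6) and 345 to 680 CPM in SOD1G93A mice (472 ± 122), higher in all 6 pairs (exact permutation test over pairs, two-sided, p = 0.03125, the smallest possible). This p was not corrected for the other measures compared in the same way. The same 5 markers also had higher fitted levels in females, 3 at an unadjusted p below 0.05 (beside 3.59% of all genes) and 0 past the FDR in limma, with a median log2 difference (female minus male) of 0.41. They were not the only list to differ by sex at that level. Of the endoplasmic reticulum stress genes 5 of 14, and of the chaperones 5 of 16, were lower in females, beside 2.16% of all genes. The medians of these lists were -0.32 and -0.16, with 0 genes past the FDR in limma. In the 1488 DI nuclei that had mapped to a DI class and lay in the 12 clusters, the sums of the oligodendrocyte markers were 330 ± 43.3 CPM in WT and 383 ± 104 CPM in SOD1G93A mice. They were higher in 4 of 6 pairs (p = 0.28125 in the same exact permutation test). None of the 5 markers was at 0 in DI. Mobp and Anln, named above, are expressed by oligodendrocytes, and the part of oligodendrocyte RNA in their values was not tested. Astrocyte markers summed to 153 ± 14.7 and 168 ± 37.7 CPM (exact permutation test over pairs, two-sided, p = 0.46875).

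Between the sexes, 12 of 10505 genes (0.114%) passed in limma, and 604 (5.75%) had an unadjusted p below 0.05, of which 377 (3.59%) were higher and 227 (2.16%) lower in females. Of the 12, 8 lie on the X or Y chromosome, among them Xist and Uty, and Kdm5c and Shroom4 with log2 differences (female minus male) of 0.52 and -0.64. The other 4, all higher in females, were Rtkn2 (1.54), Bnc2 (1.46), the glutamate transporter Slc1a3 (1.10) and the exchange factor Vav3 (0.55), each with a limma FDR of 0.0753. Vav3 stood at 46.8, 77.2 and 96.5 scaled CPM in females and 40.2, 49.8 and 57.1 in males, and Slc1a3, which astrocytes express, from 5.02 to 24.9 against 2.27 to 8.32. The ranges of both genes overlapped between the sexes. Bnc2, Slc1a3 and Vav3 lost the call in all 4 other settings tried (the edgeR test, no filter, no pool term, nuclei mapped to a DI class), and Rtkn2 in all 3 in which it was tested. With 1 mouse left out, Rtkn2 and Bnc2 lost it in 8 of 12 fits and Slc1a3 and Vav3 in 9 of 12. Shroom4 lost it in all 4 settings and in 7 of 12 fits, and Kdm5c in 3 of 4 settings, all but edgeR, and in 5 of 12 fits. The part of the oligodendrocyte markers, higher in females, in these calls was not tested. With a mouse of pool B left out, the count of genes was 46 (female WT) or 42 (male SOD1G93A), and it was 6 or 7 without the female WT or male SOD1G93A mouse of pool C, the female SOD1G93A mouse of pool A or C, or the male WT of pool A.

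The genotype effect did not differ detectably between the sexes. In limma 0 genes passed for the difference of the effects, with 345 (3.28%) at an unadjusted p below 0.05, and the edgeR test gave 0 and 317. Sod1 had a log2 fold change of 0.82 ± 0.18 (SE) in females and 1.33 ± 0.17 in males, and Bnc2 of 2.58 ± 0.45 and 1.20 ± 0.44.

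The genotype effect was also compared with that in the nearest sub-types, from the same 12 mice. Against MI, 1 of 9926 genes (0.0101%) passed in limma, with 499 (5.03%) at an unadjusted p below 0.05. It was Enox1, which encodes an ecto-NOX disulfide-thiol exchanger (chromosome 14, 77156763 to 77721760). In DI it stood at 294, 365 and 413 CPM in WT mice and 360, 399 and 462 in SOD1G93A mice, and in MI at 502, 644 and 716 against 263, 390 and 547. Thus Enox1 was near level in DI (log2 fold change 0.19, limma FDR near 1) and lower in SOD1G93A in MI (-0.62, limma FDR = 0.0195), and the difference was 0.83 ± 0.13 (SE, limma FDR = 0.00274). The difference passed in each alternative and with each mouse left out.

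Sod1 changed by 1.07 in DI and 1.20 in MI (difference -0.09 ± 0.21, SE). Gad1 was -0.16 in DI and 0.57 in MI, a difference of -0.71 ± 0.16 (SE) that did not pass (limma FDR = 0.578). Xpo1 was 0.41 in DI and 0.89 in MI, where it passed, and the difference of -0.47 did not pass (limma FDR = 0.954). Against DE, 0 of 12681 genes passed in limma, with 648 (5.11%) at an unadjusted p below 0.05. Flrt2 was -0.60 in DI and -0.76 in DE, where it passed (difference 0.16, limma FDR = 0.997), and Bnc2 was 1.89 in DI and 0.19 in DE (difference 2.05, limma FDR = 0.948).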

How the data were processed

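Per the labels, each deposited library pooled 4 hashtagged mice. The authors demultiplexed bcl files with bcl2fastq 2.20.0.422, aligned reads to the mm10 pre-mRNA reference with STAR 2.5.1b in Cell Ranger 3.1, assigned nuclei to mice by hashtag, discarded doublets, nuclei under their gene minimum and mitochondrial genes, and clustered and mapped nuclei in Seurat 4.0.3 (R 4.0.3). The deposited counts are raw UMIs per gene and nucleus. The deposited table of nuclei gives mouse, sex, genotype, pool, cluster, sub-type, the mapping score as a fraction, and the percent of mitochondrial UMIs, which the authors computed. GEO's labels describe pools, so mice and genotypes were taken from that table. All 1589 DI nuclei were hashtag singlets, and 3 had at least 5 times the median UMIs. The deposited normalised values were not used.

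UMIs were summed per mouse over DI nuclei and tested with limma 3.58.1 (voom, TMMwsp factors, filterByExpr, ~ 0 + group + pool, Benjamini-Hochberg FDR below 0.1), as in the study's methods, in R 4.3.3. The minimum count of 10 in filterByExpr and the robust eBayes were chosen here. DI against MI or DE used duplicateCorrelation with the mouse as block. Shares used edgeR 4.0.16 (FDR below 0.05). DESeq2 1.42.0 and edgeR on counts were alternatives. P-values set differences against the variation between these mice. Symbols of 97.9% of the 31040 genes matched GENCODE, from which positions come. The members and gene lists were chosen with earlier results of these data known. Named genes are those past the threshold, the 10 higher and 10 lower of smallest p that moved one way in all 6 pairs, the 15 highest and 15 lowest of at least 20 CPM between sub-types, and the 5 leading genes of each cluster; list genes, Enox1 in single sub-types and the genes printed beside a cluster or a difference were chosen after their values were seen. Some genes that these rules select are not reported here by name, though counts and sums over lists include them. The scripts were tested on simulated data.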

Additional observations from a re-analysis of the deposited data

Results flagged for a closer look

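In 88 groups of 6 mice searched, 3 held 1 mouse far from the other 5, where chance gives about 1 in 20 groups. Sod1 in SOD1G93A mice had its highest value, 259 scaled CPM, in the male of pool A. March3, which did not pass, had its highest value among SOD1G93A mice, 100.2 scaled CPM, in the female of pool C. Cluster 20 took 12.4% of the DI nuclei of the male WT mouse of pool A, apart from the other WT mice.

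The genotype effect on Enox1 differed between DI and MI by 0.83 on the log2 scale (limma, FDR = 0.00274), as the difference itself was tested.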

How the results depend on the processing

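The count of genes called for genotype was 1 with a minimum count of 30, 0 without the pool term and 1 after thinning mice to equal depth (Bnc2 was then under the minimum count, as with 30), and 1 to 7 with 1 mouse left out; the other alternatives gave 2 or 3. The count for sex was 7 with the edgeR test, 7 without a filter, 6 without the pool term, 6 in nuclei mapped to a DI class, and 6 to 46 with 1 mouse left out. The count for the difference between the sexes was 0 to 2, that for DI against DE 0 to 1, and that for DI against MI 1, with 1 mouse left out. The log2 difference in the share of DI was -0.16 over all nuclei. With clusters of at least 20 DI nuclei, 1 cluster was called. The difference in median UMIs per DI nucleus ran from -243 to 653 with a pair left out, among them -227. The log2 ratio of Slc6a5 to the other sub-types was 1.10 in thinned nuclei. With 1 mouse left out, log2 fold changes ran from -0.49 to 0.13 for Slc32a1 (0.033 with the female WT of pool B left out) and from -0.059 to 0.13 for Slc6a5 (-0.026 with the male WT of pool A left out), and the DI against MI difference of Sod1 from -0.24 to 0.063. The causes were not tested. GEO's samples are pools that share no replicate numbers. The fits took account of the pool by a term, and mice were paired by sex and pool in the 6 pairs of the permutation tests. DI sums of 834199 UMIs at the least limit what can be seen for genes of a few CPM.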
